A study of Mus musculus with 8 samples.

Results

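The 10 genes described here mark myeloid cells and, in the case of Ptprc, blood cells in general. They are Mpo, Elane, Lyz2, S100a8, S100a9, Csf1r, Csf3r, Cebpe, Itgam and Ptprc and form a list of names out of 22367 protein-coding genes. The rule that picks them uses no measured value, although the list was drawn up with earlier results of these data known. Open chromatin at them was read from the called peaks of 7 ATAC-seq libraries, to ask whether the DNA of blood cell genes was open in sorted bone marrow stroma. ATAC-seq uses the Tn5 transposase, which cuts accessible DNA and adds sequencing adapters, so a peak marks a place where cuts were more frequent than in a control. All 7 libraries came from the bone marrow stroma of 6-week wild-type mice, strain C57BL/6J, for which no treatment is given, and an 8th library titled Input served as the control of every peak call.

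By the study's methods, the sort kept cells that carried Sca-1 and PDGFRα and lacked CD31, CD45 and TER119, and these were split further by surface markers. CD45 is the protein made by Ptprc, so cells carrying it on their surface were meant to be removed. The labels do not tie the titles ATAC1 to ATAC7 to a sorted population, and libraries are therefore named by title. Each title had 1 library, so no value below has a replicate and no difference between libraries could be tested. The 95% intervals given are exact Poisson intervals and cover counting error only.

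Neutrophils and monocytes arise from a common progenitor in the bone marrow, under the control of the transcription factors PU.1 and C/EBP and of the receptors for the colony-stimulating factors. Maturing neutrophils first fill their primary granules with enzymes such as myeloperoxidase and neutrophil elastase, later their secondary granules, and load the cytosol with the calcium-binding proteins S100A8 and S100A9. Genes of this kind mostly have promoters poor in the dinucleotide CpG, which tend to be closed outside the cells that use them, whereas CpG-rich promoters of widely used genes are open in most cell types.

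The number of called peaks was between 15188 in ATAC7 and 32280 in ATAC2, and the median peak held 111 to 169 library reads. The library reads of a peak and its Input reads were both counted over an outer region somewhat wider than the peak. Where no peak is listed, the caller made no call, which does not show that the DNA was closed. In these bulk samples, fewer cells with an open site and less opening in each cell cannot be told apart. Of 20 stromal genes that define the labelled tissue, 13 had a start-site peak in at least 1 library. Pdgfra, the receptor used for the sort, had one in every library except ATAC1 and ATAC3, and Dcn, Lepr, Prrx1, Thy1, Col3a1, Vcam1 and Eng were not called at their start sites in these 7 libraries.

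A peak was assigned to a start site when its nearest base lay within 1000 bases of a transcript start of the gene. By this rule 4 of the 10 members had a start-site peak in ATAC3 and in ATAC5, 3 in ATAC1 and in ATAC7, 2 in ATAC4 and in ATAC6, and 0 in ATAC2. With every list cut to its best 15188 peaks, the length of the shortest, ATAC5 and ATAC6 had 1 each, ATAC3 had 3 and the others kept their counts. Among all protein-coding genes the share with a start-site peak ran from 42.1% in ATAC7, 43.6% in ATAC3 and 43.8% in ATAC4 over 49.1% in ATAC1 and 50.4% in ATAC2 to 51.7% in ATAC6 and 52.9% in ATAC5. The members' shares, from 0% to 40.0%, were below these in every library. When peaks under a fold of 5 were left out, this held in 5 libraries only, as ATAC3 had 4 members beside 28.9% of all protein-coding genes and ATAC7 had 3 beside 27.7%.

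Promoter CpG content differs between the members and most genes. All 10 members have promoters with a ratio of observed to expected CpG under 0.4, from 0.0984 for Lyz2 to 0.37 for Cebpe, over 1000 bases around the first start site. The 8957 protein-coding genes under that limit had a start-site peak in 13.5% of cases in ATAC5, 12.1% in ATAC6, 11.9% in ATAC1, 11.9% in ATAC2, 7.74% in ATAC4, 7.7% in ATAC3 and 7.4% in ATAC7. Beside these genes the members' share was higher in 6 of 7 libraries and lower in ATAC2, where it was 0%. With lists of equal length, ATAC5 and ATAC6 had 1 member of 10 each, beside 8.28% and 8.05% of the low-CpG genes, so their share was then close to the background. With 10 genes each call weighs heavily, and Itgam alone decided 1 call in ATAC3 and in ATAC5. The neighbours S100a8 and S100a9 were the only members called in ATAC4 and in ATAC6, so the higher share there rested on that pair.

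Counting any peak in a gene or within 10 kb of it, 7 members had one in ATAC1, 6 in ATAC3 and in ATAC5, 5 in ATAC4 and in ATAC6, and 3 in ATAC2 and in ATAC7. The share among all protein-coding genes was 65.2% in ATAC5, 63.8% in ATAC2, 63.8% in ATAC6, 60.2% in ATAC1, 53.5% in ATAC3, 53.3% in ATAC4 and 52.2% in ATAC7. The members were above this share in ATAC1 (70.0%) and ATAC3 (60.0%) and below it in the other 5 libraries, with the lowest in ATAC2 (30.0%) and ATAC7 (30.0%). With lists of equal length, 5 members had a peak in ATAC1 and 5 in ATAC3, beside 54.0% and 52.8% of all protein-coding genes, so neither was then above its background. Without the peak at the start of Mrps15, a neighbour of Csf3r, ATAC3 likewise had 5. With the full lists, the number of peaks separated the libraries further. ATAC1 held 22 of the 65 member peaks, ATAC2 held 3, and the others held 4 to 11. Per gene, that was 2.2 peaks per member against a mean of 1.45 over all protein-coding genes in ATAC1, and 0.3 against 1.67 in ATAC2, the library with the longest peak list. In ATAC1, S100a8 had 7 of these peaks and its neighbour S100a9 had 6, so the mean rested largely on that pair. No other member had more than 3 there. Most ATAC1 peaks ranked beyond the best 15188 of their list, and with lists of equal length ATAC1 no longer held the most.

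**Figure D1:**
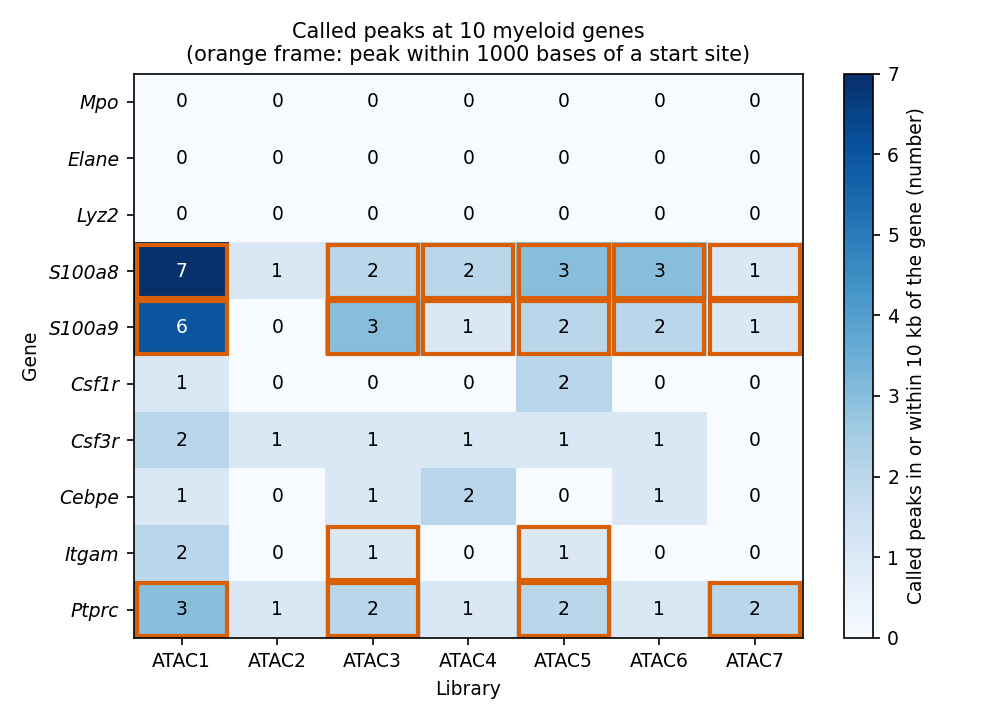
Number of called peaks in or within 10 kb of each of the 10 genes (rows) in each library (columns), with darker blue for more peaks and an orange frame where a peak lay within 1000 bases of a start site. The row of S100a8 reaches 7 peaks in ATAC1, the rows of Mpo, Elane and Lyz2 are at 0 throughout, and ATAC2 has no frame.

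The granule enzymes had no peak. Mpo encodes myeloperoxidase, Elane neutrophil elastase and Lyz2 the lysozyme of neutrophils and macrophages, and none of the 3 had a called peak in the gene or within 10 kb in any of the 7 libraries. Lacking such a peak was common, as only 52.2% (ATAC7) to 65.2% (ATAC5) of all protein-coding genes had one in a single library. The share of all genes without one in any library was not computed. For Elane (chromosome 10, 79349057 to 79350961 in mm9) the nearest peak was 20.1 to 20.5 kb away in every library, at the start site of Med16, which encodes a Mediator subunit. For Lyz2 (chromosome 10, 116714390 to 116719377) it was 52.6 to 52.9 kb away and lay at the start of Yeats4, a chromatin gene. Both of these neighbouring peaks held many reads, 304 to 1162 at Med16 and 188 to 1089 at Yeats4. Around Mpo (chromosome 11, 87607083 to 87617915) the nearest peak was between 20.9 kb away in ATAC6 and 38.1 kb away in ATAC2.

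S100a8 and S100a9 encode the 2 subunits of calprotectin, an abundant cytosolic protein of neutrophils, and lie as neighbours in opposite orientation on chromosome 3. S100a8 occupies 90472993 to 90473956 on the plus strand and S100a9 occupies 90496554 to 90499643 on the minus strand. Each had a start-site peak in 6 of 7 libraries, all but ATAC2. They were the members with start-site peaks in the most libraries.

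The S100a8 peaks began 35 to 184 bases inside the gene, in the first intron of the annotated transcript. In reads over the outer region with Input reads beside them, the values were 313 with 20 in ATAC1, 200 with 17 in ATAC3, 142 with 14 in ATAC4, 264 with 18 in ATAC5, 141 with 16 in ATAC6 and 147 with 15 in ATAC7. Libraries were set side by side on 2 scales, both per 1000 bases of outer region. The first multiplies reads by the library's scale factor to Input, and the second, chosen after seeing the data, divides them by the reads in all peaks of the library. The 2 scales put the libraries in different orders. Scaled to Input, ATAC5 was highest at 580 (95% interval 513 to 655), ATAC1 had 435 (388 to 486), and the other 4 libraries had 284 to 372. Per 1000000 reads in peaks, ATAC7 was highest at 76.9 (64.9 to 90.5), ATAC1 had 52.0 (46.3 to 58.1), and ATAC5, at 38.7 (34.1 to 43.6), was below all but ATAC6. No order of the 6 libraries at S100a8 is therefore given.

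The peak with the most reads at a member's start site, that of S100a8 in ATAC1, spans 36 bases of mm9 (chr3:90473046-90473081, plus strand). It is shown with the 250 bases before the first start site of S100a8 (chr3:90472743-90472992, plus strand) and of S100a9 (chr3:90499644-90499893, minus strand), since peaks flank or cover these starts. Capitals mark matches on either strand to short motifs of 3 factor families of blood cells, GAGGAAG for PU.1, TNNGCAA for C/EBP and TGTGGT for RUNX, none of which overlapped another here.
S100a8 peak: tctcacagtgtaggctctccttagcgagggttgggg
S100a8 upstream: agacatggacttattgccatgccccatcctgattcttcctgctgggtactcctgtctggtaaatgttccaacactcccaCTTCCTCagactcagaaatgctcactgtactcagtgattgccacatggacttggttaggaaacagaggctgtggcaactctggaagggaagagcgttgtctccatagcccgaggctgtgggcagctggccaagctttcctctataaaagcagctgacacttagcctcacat
S100a9 upstream: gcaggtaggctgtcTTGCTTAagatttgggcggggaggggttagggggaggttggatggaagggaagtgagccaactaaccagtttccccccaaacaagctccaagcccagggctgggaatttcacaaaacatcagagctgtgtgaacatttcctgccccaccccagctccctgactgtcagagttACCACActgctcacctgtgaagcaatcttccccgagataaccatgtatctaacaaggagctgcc

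The stretch before S100a8 held 1 match to the PU.1 motif on the minus strand, and that before S100a9 held 1 match each to the C/EBP and RUNX motifs. At S100a9 the peaks covered the first exon and the bases before it in ATAC1, ATAC3, ATAC4, ATAC5 and ATAC6. The peak of ATAC7 lay inside the gene, 150 bases from the nearest annotated transcript start. Taking the peak nearest to the start site, S100a9 had 235 reads with 21 Input reads in ATAC1, 120 with 16 in ATAC3, 105 with 17 in ATAC4, 186 with 28 in ATAC5, 139 with 21 in ATAC6 and 91 with 18 in ATAC7. The order again turned with the scale. Scaled to Input, ATAC1 was highest at 489 (429 to 556) and ATAC7 lowest at 210 (169 to 258), whereas per 1000000 reads in peaks ATAC3 was highest at 77.2 (64.0 to 92.0) and ATAC6 lowest at 28.8 (24.3 to 34.0).

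No peak was called at either start site in ATAC2, although it had the longest list. Peaks of ATAC2 with Input reads in the range seen at the S100a8 start-site peaks, 14 to 20, numbered 5470, with a median of 89 reads and at least 27. The 6 libraries with a call at S100a8 held 141 to 313 reads there. The reads of ATAC2 at these start sites are not known, because the tables count reads only where a peak was called.

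ATAC2 had 1 peak near the pair, on the far side of S100a8. That upstream region, whose peaks had their nearest base 9222 to 9814 bases before the start, was called in 6 libraries, all but ATAC7, and did not lie at another gene's start. It held 87 reads with 6 Input reads in ATAC2, 123 with 5 in ATAC3, 100 with 7 in ATAC4 and 91 with 7 in ATAC5. ATAC1 had a pair of peaks in it, with 81 and 91 reads, and ATAC6 another pair, with 62 and 55. ATAC7 was thus without a call upstream but with one at both start sites, the reverse of ATAC2.

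Over the window from 10 kb before S100a8 to 10 kb beyond S100a9 (chr3:90462993-90509643), ATAC1 had 13 peaks, ATAC2 had 1, and ATAC3 to ATAC7 had 5, 3, 5, 5 and 2 in the order of their titles. The lead of ATAC1 held for the full lists only. Within the best 15188 peaks of each list, ATAC1 kept only its peaks at the 2 start sites, whereas ATAC3 kept all 5. The peaks of ATAC1 held 1542 reads, of which some were counted in more than 1 peak where outer regions overlap. ATAC1 had 4 peaks of 57 to 66 reads, beginning 2429 to 4276 bases beyond the S100a8 start, that no other library had. Near S100a9 it had 5 further peaks of its own, with 78 to 180 reads, of which 4 lay downstream of the gene and 1 in an intron. By number of peaks in or within 10 kb, S100a8 in ATAC1 had 7 and S100a9 had 6, against a median of 1 over all protein-coding genes.

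**Figure D2:**
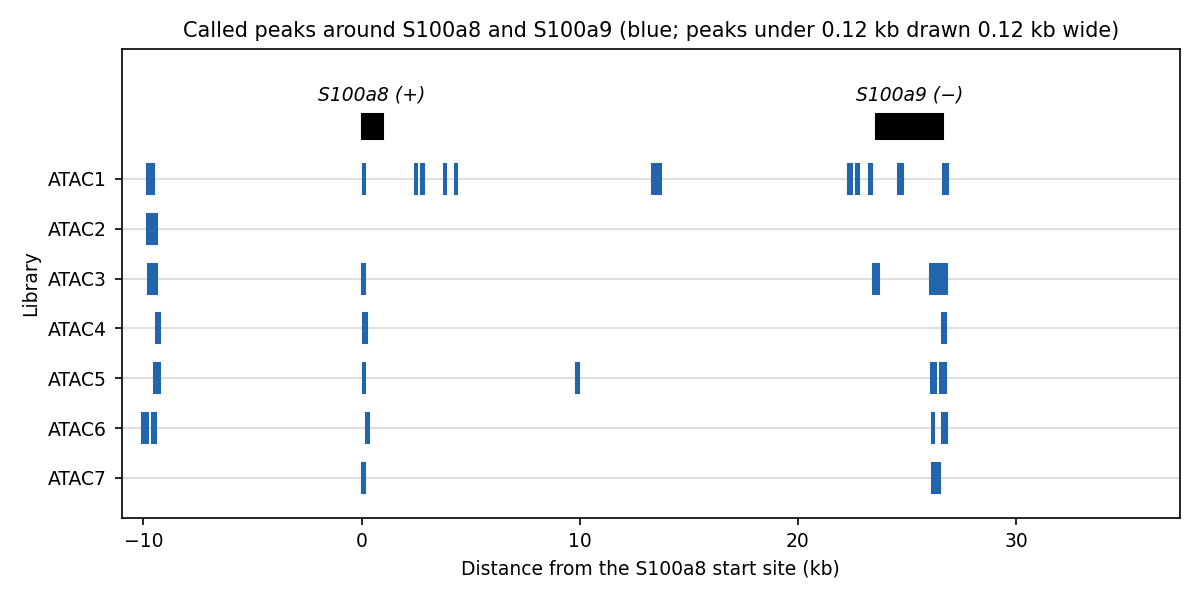
Called peaks (blue) in each library by distance in kb from the S100a8 start site, with the genes as black bars and their strands in brackets, and the narrowest peaks widened so that they can be seen. With the full lists drawn here, ATAC1 has the most peaks, several of them in no other row, and ATAC2 has only the upstream peak.

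The receptor genes had peaks outside their start sites only. Csf1r, the macrophage colony-stimulating factor receptor (chromosome 18, 61265226 to 61291803, plus strand), was never called at its start. An intron of it was called in ATAC1 with 48 reads and 9 Input reads, and in ATAC5 as a pair of peaks with 66 and 88 reads and 15 and 19 Input reads, whose outer regions overlap. The nearest of these lay 2282 bases from a start site. The other 5 libraries had no peak in Csf1r or within 10 kb. With lists of equal length, Csf1r had no such peak in any library.

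Csf3r, the granulocyte colony-stimulating factor receptor (chromosome 4, 125701794 to 125722219, plus strand), likewise had no start-site peak. Its 10 kb window held a peak in 6 libraries, all but ATAC7, with 90 to 217 reads. This peak lay downstream of the gene at the start of Mrps15, which encodes a mitochondrial ribosomal protein, in sequence with 32 CpG in 300 bases, and no read count there can be given to Csf3r. Without it, Csf3r was left with a peak in ATAC1 6435 bases upstream, with 61 reads and 9 Input reads.

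Cebpe, a C/EBP factor needed for the last steps of granulocyte maturation (chromosome 14, 55329200 to 55331011, minus strand), had no start-site peak. A region downstream of it, whose peaks had their nearest base 6018 to 6127 bases from the start, was called in 4 libraries. It held 190 reads with 28 Input reads in ATAC1, 76 with 20 in ATAC3, 134 with 24 in ATAC4 and 127 with 26 in ATAC6. ATAC2, ATAC5 and ATAC7 had no peak within 10 kb, and their nearest was 23.4 to 23.7 kb away at the start of Acin1. No other gene started within 1000 bases of the downstream region, and its 300-base window held 5 matches to the C/EBP motif, the most of any member region.

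Itgam encodes CD11b, the integrin chain of neutrophils and monocytes (chromosome 7, 135206154 to 135271674, plus strand). Its start-site call rested on an intronic peak 576 bases from the start in ATAC5, with 48 reads and 10 Input reads, and 622 bases away in ATAC3, with 82 and 10. With a window of 500 bases both calls were lost. ATAC1 had no peak there but had 1 upstream, with 76 reads and 20 Input reads, and 1 downstream of the gene, with 65 and 8. In ATAC2, ATAC6 and ATAC7 the nearest peak was 94.2 to 94.5 kb away.

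Ptprc, which encodes the CD45 used to remove blood cells, was the member with a peak in the gene in all 7 libraries (chromosome 1, 139959438 to 140071882, minus strand). Its start site had a peak in ATAC1, ATAC3, ATAC5 and ATAC7 and none in ATAC2, ATAC4 and ATAC6. The start-site peaks held 84 reads with 2 Input reads in ATAC1, 70 with 0 in ATAC3, 60 with 2 in ATAC5 and 58 with 1 in ATAC7. With so few Input reads, the ratio of reads to Input has little meaning here, and the ranks of these peaks in their lists, from the top 61.2% to the top 97.3%, give a better measure of their place. Scaled to Input, reads per 1000 bases were 279 (213 to 359) in ATAC5, 247 (197 to 306) in ATAC1, 179 (140 to 226) in ATAC3 and 146 (111 to 188) in ATAC7. Per 1000000 reads in peaks they were 18.6 (14.2 to 23.9) in ATAC5, 29.6 (23.6 to 36.6) in ATAC1, 43.6 (34.0 to 55.1) in ATAC3 and 38.3 (29.1 to 49.6) in ATAC7, so that ATAC5 went from the highest to the lowest.

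The site called in all 7 libraries lay in an intron of Ptprc, with the nearest base of its peaks 38616 to 38664 bases from an annotated start. Among 50683 regions formed by merging overlapping peaks of the whole series, 8428 (16.6%) were called in all 7 libraries, and the intronic site was the only such region among the 25 of the members. With lists of equal length its ATAC6 call was lost, which left 6 libraries. The values that follow are those of the full lists, for the intronic site. It held 193 reads with 7 Input reads in ATAC1, 106 with 7 in ATAC2, 100 with 6 in ATAC5, 88 with 7 in ATAC4, 88 with 4 in ATAC7, 84 with 6 in ATAC3 and 76 with 6 in ATAC6. Scaled to Input, ATAC1 stood above the rest, at 743 reads per 1000 bases (642 to 856), and the other libraries had 283 to 469 with upper bounds of 571 or less. Per 1000000 reads in peaks, ATAC7 was highest at 97.0 (77.8 to 119) and ATAC1 followed at 88.8 (76.8 to 102). On both scales the interval of ATAC1 lay above those of ATAC2, ATAC5 and ATAC6. ATAC1 had 1 more intronic peak, 16137 bases from the start, with 72 reads and 0 Input reads.

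The intronic site called in all libraries is shown because it is the most widely called element of the members, followed by the 250 bases before the first Ptprc start site, where part of the ATAC3 peak and the ATAC7 peak lie. The intronic site is chr1:140033079-140033260 and the upstream stretch is chr1:140071883-140072132, both in mm9 on the minus strand, the strand of the gene. Capitals again mark motif matches.
Ptprc intron: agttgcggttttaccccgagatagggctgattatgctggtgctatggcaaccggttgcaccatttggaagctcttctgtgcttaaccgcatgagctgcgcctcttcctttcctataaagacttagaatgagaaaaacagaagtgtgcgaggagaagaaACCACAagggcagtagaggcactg
Ptprc upstream: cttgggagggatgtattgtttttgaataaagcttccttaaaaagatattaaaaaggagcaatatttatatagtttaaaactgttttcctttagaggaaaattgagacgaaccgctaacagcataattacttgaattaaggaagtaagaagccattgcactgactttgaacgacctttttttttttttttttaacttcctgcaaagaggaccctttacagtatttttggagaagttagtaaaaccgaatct

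The intronic stretch is 48.9% GC and holds 6 CpG and 1 RUNX match. The stretch before the start is 31.6% GC with none of the 3 motifs, which says only that these letters are not in it. Input reads were scarce at the Ptprc peaks, from 0 to 21.9 per 1000 bases, beside library medians of 52.4 to 77.8 over all peaks.

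**Figure D3:**
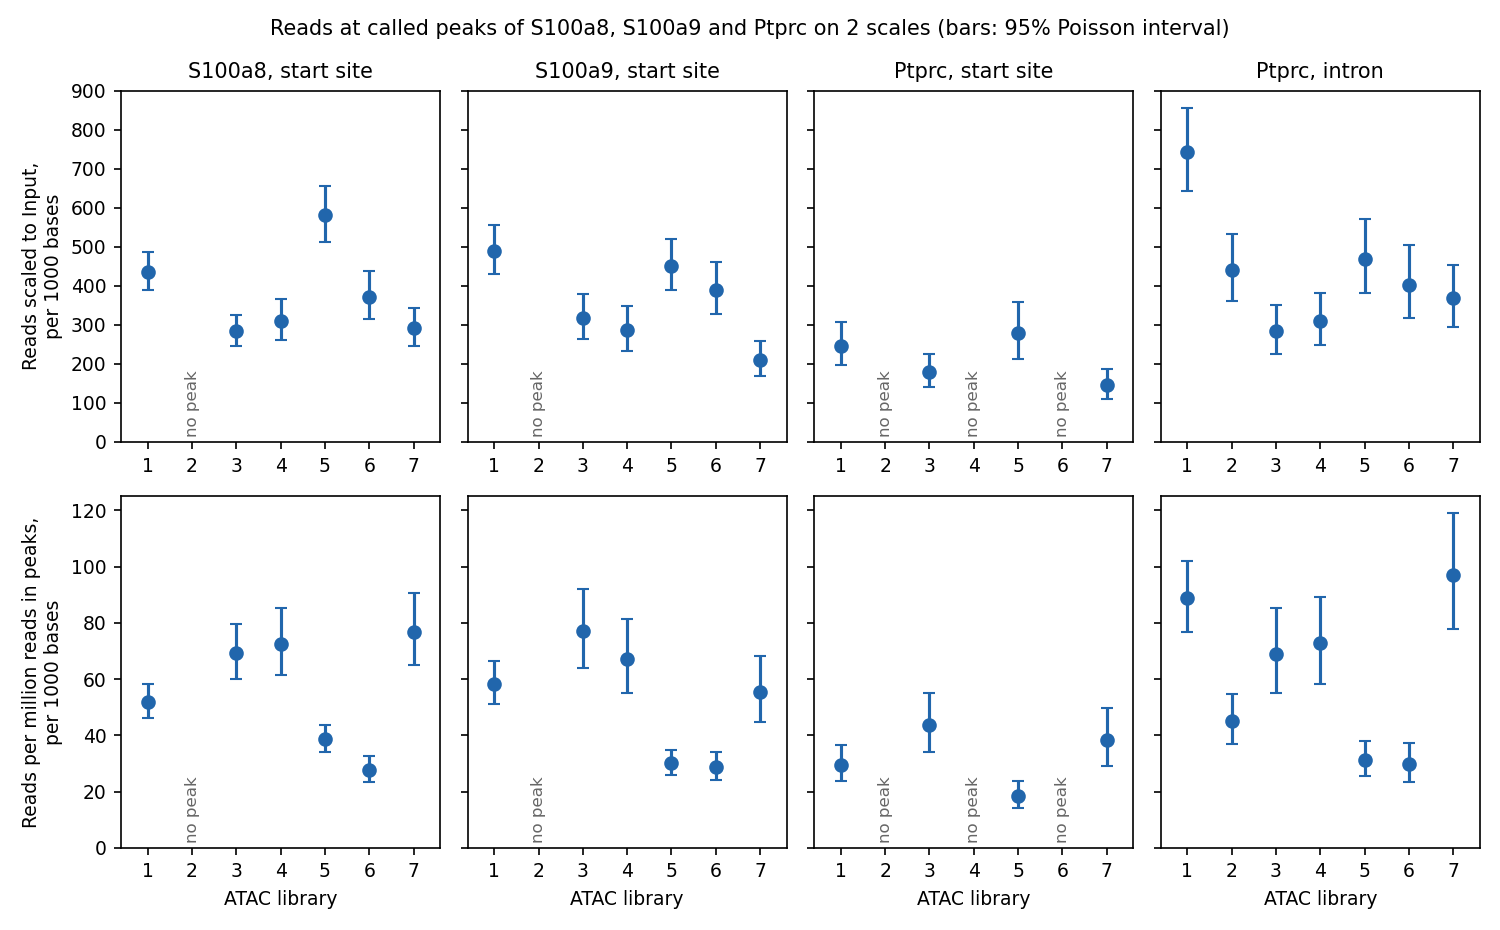
Library reads per 1000 bases of outer region at the start-site peaks of S100a8, S100a9 and Ptprc (the peak nearest to the start) and at the Ptprc intronic site, for ATAC libraries 1 to 7, with exact 95% Poisson intervals as bars and "no peak" where none was called. The upper row is scaled to Input and the lower row is per 1000000 reads in the library's peaks, and at S100a8 ATAC5 is highest in the upper row with 580 and second lowest of the called libraries in the lower row with 38.7.

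In rank, peaks at the members were weak ones. Of their 21 start-site peaks, 19.0% fell in the better-ranked part of their list, split at 50%, beside 49.0% for the 8770 start-site peaks of genes with low-CpG promoters and 67.7% for those of all protein-coding genes. The median start-site peak of a member held 120 reads, and that of a low-CpG gene 135. The best-ranked of the 21 was the S100a8 peak in ATAC5, in the top 28.9% of its list.

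The 65 peaks formed 25 regions when overlapping peaks were merged. Of these, 16 were called in 1 library, beside 40.9% of the 50683 regions of the whole series, and 13 of the 16 were called in ATAC1. Over the whole series, ATAC1 accounted for 17.5% of the regions called in 1 library, ATAC2 for 30.6% and ATAC5 for 27.4%. At the members ATAC2 had 0 such regions, and ATAC3, ATAC4 and ATAC5 had 1 each. Most of the 13 regions called only in ATAC1 lay at S100a8 and S100a9. All 13 ranked at 16805 or later in the ATAC1 list, beyond its best 15188, so none of them remained with lists of equal length.

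Matches to the blood-factor motifs were counted in 300-base windows at the centre of each region's strongest peak. The PU.1 motif was present in 2 of 25 member regions (8.0%), beside 13.8% of 164103 windows at all peaks. The C/EBP motif was in 12 (48.0%) beside 33.9%, and the RUNX motif in 7 (28.0%) beside 18.9%. The 2 sets of windows are not alike, since those at all peaks averaged 58.6% GC and counted each library's peaks separately, while the member windows, 1 per merged region, averaged 48.6% GC, with 23 of the 25 below 58.6%. In the promoters, from 250 bases before to 50 bases after the first start site, the PU.1 motif was found in 6 of 10 members (Mpo, Elane, Csf3r, Cebpe, Itgam and S100a8), beside 15.4% of all promoters of low CpG content. The C/EBP motif was found in 3 (Cebpe, Lyz2 and S100a9), beside 41.9%, and the RUNX motif in 3 (Lyz2, Mpo and S100a9), beside 21.6%. Of the 6 genes with the PU.1 motif, 4 were not called at the start in any of the 7 libraries. A match is a run of letters and does not show that a factor was bound.

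The other myeloid genes, a list of 30, were set beside the members. Gfi1 and Cebpd are not protein-coding genes in the annotation used and were not analysed here, which left 28. A start-site peak was found for 16 of 28 in ATAC1, 12 in ATAC3 and in ATAC5, 10 in ATAC6, 9 in ATAC4 and in ATAC7, and 8 in ATAC2. Only in ATAC1 was this share, 57.1%, above that of all protein-coding genes, 49.1%. Lists of equal length were not tried for these genes. ATAC1 had the most and ATAC2 the fewest, while among the members ATAC3 and ATAC5 had the most and ATAC2 the fewest. Over all genes and libraries, 38.8% of 196 pairs had a peak, and 25.7% of the 140 pairs from genes with low-CpG promoters, beside 25.7% of 70 pairs for the members. The same low-CpG measure was 34.3% of 70 pairs for the stromal list, 26.1% of 119 for other blood genes and 11.7% of 77 for endothelial genes. These shares pool the 7 libraries, and their order was not tested and did not hold in every library. With all promoter classes, ATAC3 had 4 of 10 members beside 5 of 20 stromal genes. ATAC7 had 3 of 10 members beside 2 of 20 other blood genes. The reverse was seen in ATAC2, with 0 of 10 members beside 11 of 20 stromal and 6 of 20 other blood genes.

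Among transcription factors, Spi1 (PU.1), Cebpa, Cebpb and Klf4 were called at their start sites in all 7 libraries and Irf8 in 5. Spi1, the only one of these with a low-CpG promoter, had 307 reads with 33 Input reads in ATAC1, between 80 and 156 reads in ATAC3 to ATAC7, and 44 with 10 in ATAC2. Of the secondary granule genes, Ngp had a peak in all 7 libraries, with 89 reads in ATAC2 and 121 to 245 in the others, and Ltf in ATAC1 and ATAC4. Camp, the cathelicidin gene, had a peak in ATAC1, ATAC3, ATAC5 and ATAC7, the same libraries as Ptprc, with 132, 104, 141 and 60 reads. Of the receptor and surface genes, Il6ra was called at its start in 7 libraries, Csf2ra in 6, Cd14 in 5 and Itgb2, the partner chain of CD11b, in 4. The signalling adaptor genes Tyrobp (ATAC1, ATAC3 and ATAC5) and Fcer1g (ATAC1 and ATAC3) had calls in few libraries. No library had a start-site peak at Ctsg, Prtn3, Mmp8, Chi3l3, Ly6g, Cxcr2, Fpr1, Cybb, Emr1, Fcgr1 or Csf2rb.

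The stromal list, of 20 genes, had another order. It had a start-site peak for 12 genes in ATAC5, 11 in ATAC2, 10 in ATAC6, 9 in ATAC7, 7 in ATAC1, 5 in ATAC3 and 4 in ATAC4. Beside the all-gene shares, the stromal list was lower in ATAC1 (7 of 20 beside 49.1%), ATAC3 (5 of 20 beside 43.6%) and ATAC4 (4 of 20 beside 43.8%), and within 2 genes of the all-gene share in the other 4 libraries, among them ATAC2, where 0 members were called at the start. The 20 other blood genes (lymphoid, erythroid and megakaryocytic) had calls for 9 in ATAC1, 2 in ATAC7 and 4 to 8 in the rest, the 20 endothelial genes for 0 to 7, and 10 housekeeping genes for 9 or 10 in every library. Eng stood in both the stromal and the endothelial list. What part other cell types had in the member peaks was not tested.

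**Figure D4:**
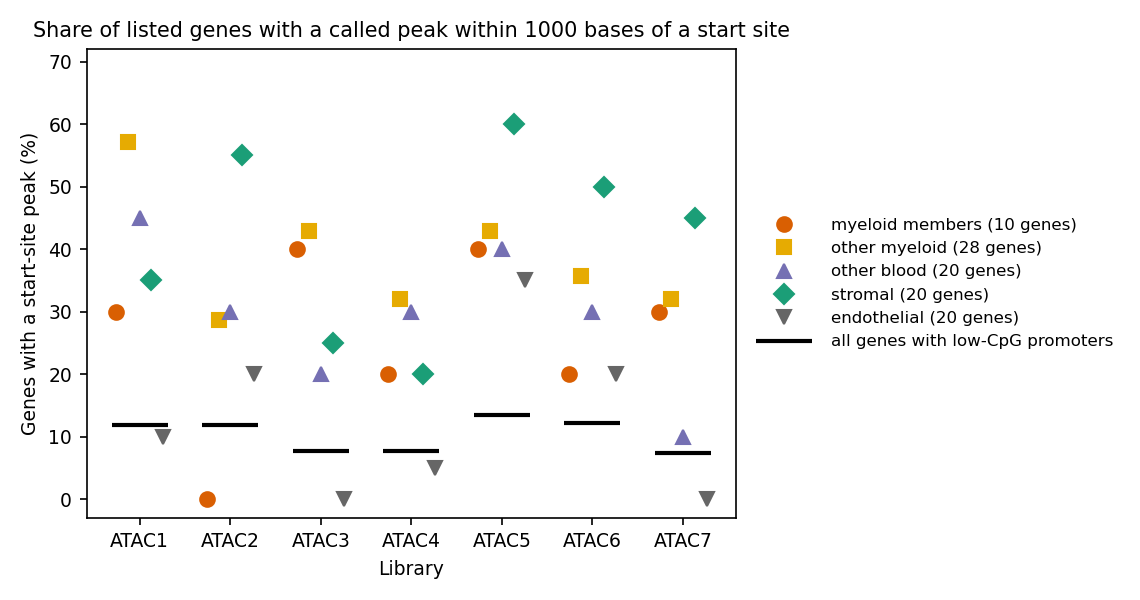
Share of genes (%) with a called peak within 1000 bases of a start site, for the 10 members and 4 other lists (symbols, with the number of genes in the key, set side by side within a library) and for all protein-coding genes with low-CpG promoters (black bars). The members are at 0% in ATAC2, where stromal genes reach 55.0%, and at 30.0% in ATAC1, where the other myeloid genes reach 57.1% and stromal genes 35.0%.

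Genes with the most similar pattern were sought for the 3 members with a start-site peak in 3 to 6 libraries, by Pearson's r of log2(1 + start-site reads per 1000000 reads in the list's peaks) over the 7 libraries and 12722 genes. For Ptprc they were Fmnl1, a formin of blood cells (r = 0.993), Camp (r = 0.969) and Vegfc (r = 0.965), and 0.181% of genes reached an r of 0.9. For S100a8 they were Armc7 (r = 0.994), the neutrophil-attracting chemokine Cxcl2 (r = 0.994) and Gm5533 (r = 0.992), and 3.95% of genes reached 0.9. For S100a9 they were Arl4d (r = 0.993), Tmem42 (r = 0.992) and Snrnp70 (r = 0.988), with 3.61% of genes at 0.9 or more. The 7 points share the Input library and differ in list length, and missing calls count as 0, so these values are a description only.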

How the data were processed

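ATAC-seq was made from bone marrow stromal cells in 7 libraries, with 1 Input library. Per the study's methods, the authors aligned reads with bowtie to mm9 and called peaks in each library against Input with CisGenome. Whether reads were shifted for Tn5 or duplicates removed is not given in the sources used here. Intervals therefore cover counting error only. The deposited tables have no header, so the columns were read from their values. The deposited counts are whole library and Input reads that the authors' peak caller counted in each outer region, not normalized, and the deposited fold is their ratio after scaling. The signal values are the peak statistic and window value that the authors' caller wrote for each peak, and set its rank. The scale factor, 1.01 to 1.71, was recovered from the deposited fold values, which contain an offset of 0.01 on Input.

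Peaks were assigned to GENCODE vM1 protein-coding genes, on the same build (NCBIM37, mm9), within 1000 bases of a transcript start or in and within 10 kb of the gene. Spi1 is listed there as Sfpi1, and 28 of 30 other myeloid genes are protein-coding there. Intervals (95%) came from scipy 1.17.1, tables from pandas 2.3.3 and sequences from pysam 0.24.0. The assignment was tested on simulated data. There were no replicates and no tests. The members, lists and rules were chosen with earlier results of these data known. Named were all members, the genes behind small counts, the genes sharing a member's peak, and the 3 genes most like each member in pattern. Tried as alternatives were other windows, peak centres, protein-coding transcripts, outer regions, coordinate conventions, a fold of at least 5 and equal peak numbers. The BED files were not used here.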

Additional observations from a re-analysis of the deposited data

How the results depend on the processing

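No paired analysis was possible because no title had a second library. Of 120 recomputed counts, 106 stayed within 1.5 times the value reported. Cutting every list to its best 15188 peaks, the length of the shortest, left 1 member with a start-site peak in ATAC5 (S100a8) and 1 in ATAC6 (S100a9), and 3 members within 10 kb in each of them. Ptprc then kept its start-site peak in ATAC1 and ATAC7 only. Without the 10 kb flank, 23 gene and library pairs of the 35 remained, with 4 members in ATAC1, 1 in ATAC2, 3 in ATAC4 and 3 in ATAC6. With a flank of 50 kb there were 60 pairs, with 8 members in ATAC2, 9 in ATAC4, 8 in ATAC6 and 8 in ATAC7, and Lyz2 alone was without a peak in any library. Leaving out peaks at another gene's start site, an alternative chosen after seeing the data, gave 30 pairs. Peak lists hold no reads outside peaks, so weak openings cannot be seen, and leaving out a replicate was not possible. Levels per 1000000 reads in peaks, also added after seeing the data, changed the order of the libraries at S100a8, S100a9 and Ptprc.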
